A study of Mus musculus with 18 samples.

Results

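Il33, Il6 and 7 chemokines are 9 of the 53342 genes counted in RNA from Thy1+ cells of mouse hearts, and they were chosen by gene symbol as secreted signals that fibroblasts are known to make. The set holds the alarmin Il33, the cytokine Il6, the CC chemokines Ccl2, Ccl7 and Ccl11, the CXC chemokines Cxcl1, Cxcl12 and Cxcl14, and the CX3C chemokine Cx3cl1. Cells were sorted on Thy1, a membrane protein that cardiac fibroblasts carry, and the labels write them both as Thy1+ HE and, for the sort before RNA extraction, as Thy1+HE-, without saying what HE is or whether HE-negative cells are meant. The mice were of the inbred strains C57BL/6, C3H/HeJ and KK/HlJ, each given saline (sham) or ISO (isoproterenol, which activates beta-adrenergic receptors and stresses the heart) from an implanted pump.

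Every strain had 3 groups (sham, ISO day 14 and ISO day 21), which makes 9 groups of 2 libraries, 18 libraries in all. C3H/HeJ mice are known for a defective allele of Tlr4, a receptor for bacterial lipopolysaccharide, and KK mice for a tendency to obesity and diabetes; the labels name no other allele, no sex and no age. The sham labels carry no day, so the day 14 and day 21 comparisons of a strain share its sham libraries. Nothing says whether the 2 libraries of a group came from separate mice or pools, so p-values measure only the spread between libraries, which may be technical.

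Chemokines are small secreted proteins that draw leukocytes along a gradient by binding receptors on those cells, and stromal cells such as fibroblasts are one of their main sources in an injured tissue. IL-33 is an alarmin, a protein held in the nucleus that signals through the receptor ST2 (gene Il1rl1) once it leaves a damaged or stressed cell, and in the heart fibroblasts are known to make it. IL-6 acts through IL-6 receptor and gp130 (genes Il6ra and Il6st) and is a classical product of stressed fibroblasts.

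Library totals ran from 7230741 to 26280685 counts. The sorted cells carried fibroblast transcripts throughout, with Pdgfra at 247 to 1034 CPM (read counts put on a common library size by edgeR's TMM scaling) and Thy1 at 135 to 481 CPM. Ptprc, the pan-leukocyte gene, was at 0 counts in 12 of the 18 libraries and reached 5.73 CPM at most. The library C3H/HeJ ISO day 21 replicate 1 stood apart in the summed level of 18 endothelial markers, 2304 CPM against 584 to 1123 CPM in the other 17, and in that of 19 macrophage and monocyte markers, 266 CPM. The summed level of 16 pericyte and smooth muscle markers was higher, at 1631 to 7686 CPM over the 18 libraries. The 4 libraries least like the others over all genes were replicate 1 of each of KK/HlJ ISO day 14, C3H/HeJ sham, KK/HlJ sham and KK/HlJ ISO day 21, with median correlations of 0.811 to 0.847 with the rest. RNA here is bulk, so fewer cells of a type and less RNA per cell cannot be told apart.

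All 9 genes were expressed in every library and passed the filter on low counts. Compared per length of exon, as CPM per kb averaged over the 18 libraries, Cxcl1 was highest at 490 and stood at rank 75 among the genes tested. Ccl7 followed at 242 CPM per kb, Il6 at 178 and Cxcl14 at 171. Ccl2 averaged 60.9 CPM per kb, Il33 45.9, Cxcl12 35.9 and Ccl11 22.8. Cx3cl1 was lowest at 7.06 CPM per kb, at rank 5026. In this order the ranges over libraries of every pair of neighbours overlapped. The neutrophil chemokine gene Cxcl1 was also the steadiest, with its highest library 2.27 times its lowest, while Cx3cl1 spanned 19.8 times and the others 3.61 to 8.49 times.

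**Figure D1:**
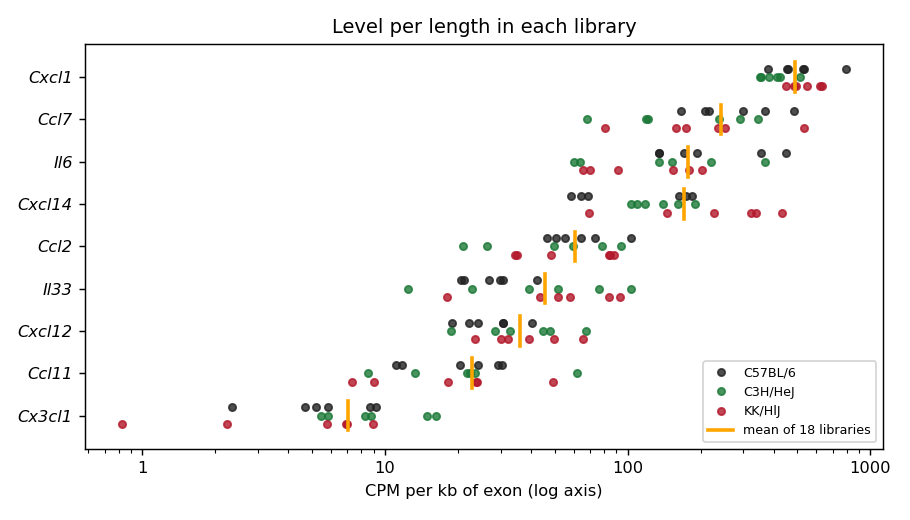
Level of each gene per length (CPM per kb of exon, log axis) in the 18 libraries, coloured by strain, with the mean as an orange bar. Cxcl1 is highest at 490 CPM per kb and Cx3cl1 lowest at 7.06, and neighbouring ranges overlap.

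The first question was whether ISO changed these genes, and none of the 9 passed the test in any of its comparisons. With edgeR's quasi-likelihood test and a Benjamini-Hochberg adjusted p under 0.05 over all 15762 genes tested, 0 of 9 were called in the mean of the ISO differences over strains and days, where 0.0571% of all genes were called. At an unadjusted p under 0.05, 4 of the 9 were past the threshold in that comparison, beside 6.69% of all genes. Il33 and Cx3cl1 were the 2 higher with ISO, and Cxcl14 and Ccl11 the 2 lower. The median log2 fold change was -0.12 over the 9 genes and 0.03 over all genes. DESeq2 called 1 of the 9, Il33.

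At day 14, averaged over strains, 0 of 9 were called beside 0.0381% of all genes, and at day 21 0 of 9 beside 0.0444%. Within single strains, 0 of 9 were called in C57BL/6 at day 14 and at day 21, where 0% of genes were called on either day. In C3H/HeJ the count was 0 of 9 at day 14 beside 0.0127% of genes and 0 of 9 at day 21 beside 0%. KK/HlJ gave 0 of 9 at day 14 beside 0% and 0 of 9 at day 21 beside 0.019%. At an unadjusted p under 0.05 the day 14 mean held 4 of the 9 genes beside 5.51% of all genes, and the day 21 mean 3 beside 5.09%. C57BL/6 had 1 at day 14 beside 1.1% and 0 at day 21 beside 2.07%. C3H/HeJ had 1 at day 14 beside 3.07% and 3 at day 21 beside 5.78%, and KK/HlJ had 2 at day 14 beside 4.74% and 1 at day 21 beside 5.23%. The values below are read against that spread. Where the 2 libraries of a group are said to lie clear of those of another, the share of all genes in that order was not counted.

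**Figure D2:**
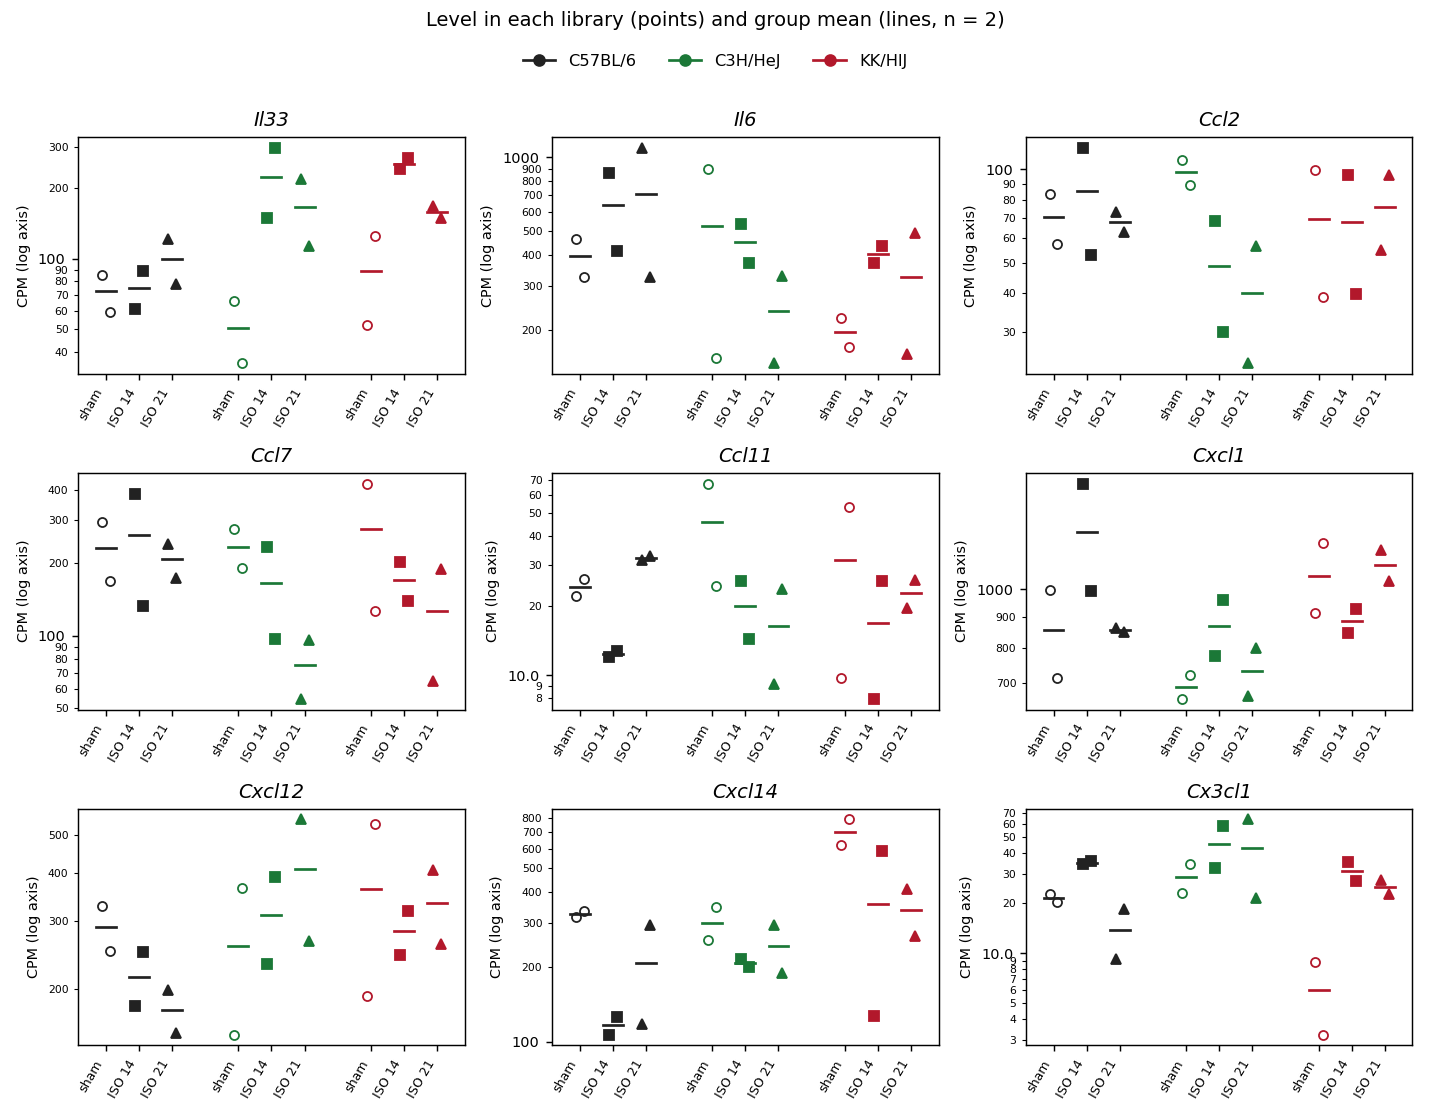
Level of each of the 9 genes (CPM, log axis) in every library, by strain and condition (ISO 14 and ISO 21 are days), with open circles for sham, squares for day 14, triangles for day 21 and a line at the mean of 2 libraries. Il33 lies above both sham libraries in all 8 ISO libraries of C3H/HeJ and KK/HlJ, and Cxcl14 below both in 11 of 12 ISO libraries.

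The alarmin Il33 (ENSMUSG00000024810) lies on chromosome 19, 29925114 to 29960718, plus strand of mm10. RefSeq (GRCm38.p6) gives it a pair of start sites. The reads were counted per gene, so the counts do not say which start was used. The 250 bases before each start are shown because both hold the letters TATAAA of the TATA motif, in capitals, searched on both strands and present in 12.4% of all RefSeq windows of this length. The first window is chr19:29924863-29925112 and the second chr19:29945540-29945789, both on the plus strand.
Il33 window 1: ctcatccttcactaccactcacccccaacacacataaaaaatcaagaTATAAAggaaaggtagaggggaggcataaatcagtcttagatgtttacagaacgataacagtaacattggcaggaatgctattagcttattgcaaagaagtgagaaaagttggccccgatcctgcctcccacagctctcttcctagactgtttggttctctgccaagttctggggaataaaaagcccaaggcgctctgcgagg
Il33 window 2: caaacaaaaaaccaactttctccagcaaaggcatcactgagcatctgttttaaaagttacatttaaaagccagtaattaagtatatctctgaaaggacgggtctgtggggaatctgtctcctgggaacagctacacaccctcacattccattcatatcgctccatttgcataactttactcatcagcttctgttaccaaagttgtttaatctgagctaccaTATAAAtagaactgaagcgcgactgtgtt
In the second window the match ends 24 bases before the start, and in the first 198 bases before it.

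Il33 had the smallest p of the 9 genes in the ISO comparison, and its levels with ISO were high in C3H/HeJ and KK/HlJ. In C3H/HeJ the sham libraries held 65.8 and 35.9 CPM, the day 14 libraries 149 and 299 CPM and the day 21 libraries 220 and 114 CPM. In KK/HlJ the sham libraries held 52.2 and 126 CPM, the day 14 libraries 241 and 269 CPM and the day 21 libraries 168 and 150 CPM. In both strains all 4 ISO libraries lay above both sham libraries, an order that 10.4% of all genes shared in C3H/HeJ and 5.78% in KK/HlJ. In C57BL/6 the sham libraries held 85.6 and 59.5 CPM, the day 14 libraries 61.3 and 88.4 CPM and the day 21 libraries 122 and 77.7 CPM. There the groups overlapped, with 2 of 4 ISO libraries above both sham libraries.

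Over all strains, 10 of 12 ISO libraries exceeded both sham libraries of their strain, and 1.09% of genes reached at least that count. Averaged over strains and days, Il33 was 2.17 times as high with ISO (log2 fold change 1.12 ± 0.24, SE), with the p at rank 20 among 15762 genes and an adjusted p of 0.0836 by edgeR's quasi-likelihood test. The mean difference at day 14 was 1.23 ± 0.27 on the log2 scale (adjusted p = 0.121) and at day 21 1.003 ± 0.26 (adjusted p = 0.463). In C3H/HeJ the log2 fold change was 2.14 ± 0.47 at day 14 (adjusted p = 0.433) and 1.72 ± 0.47 at day 21 (adjusted p = 0.604). The KK/HlJ libraries held 1.52 ± 0.46 at day 14 (adjusted p = 0.822) and 0.84 ± 0.46 at day 21 (adjusted p = 0.79). In C57BL/6 it was 0.05 ± 0.45 and 0.46 ± 0.45, both at an adjusted p of 1. The single-strain values turned on 1 library: in KK/HlJ the day 14 value was 1.004 without sham replicate 1 and 2.29 without sham replicate 2, and the day 21 value 0.34 and 1.60. In C3H/HeJ, leaving out 1 library gave 1.54 to 2.65 at day 14 and 1.16 to 2.23 at day 21.

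The call for Il33 turned on the tool and on 1 library. For the mean over strains and days the adjusted p was 0.00307 with DESeq2, 0.000278 in edgeR without the filter on low counts and 0.0145 without KK/HlJ sham replicate 2, within a range of 0.000278 to 0.379 over all alternatives. At day 14 the edgeR test of a difference in the ISO response among the 3 strains gave Il33 an adjusted p of 1, at rank 47 of 15762, and at day 21 an adjusted p of 0.913. A difference between strains in the Il33 response was thus not established. The summed macrophage and monocyte markers, which include genes that also occur outside those cells, ran from 37.2 to 59.6 CPM in the sham libraries, 25.4 to 154 CPM at day 14 and 18.4 to 266 CPM at day 21. Over the 18 libraries Il33 and that sum had a Pearson r of 0.53 and a Spearman rho of 0.59, which was 0.36 (r) without the 2 libraries farthest from the median, and the part of these cells in the result was not tested. Of the 19 markers 16 were tested, with a median log2 fold change of 2.39 beside 0.03 over all genes, 0 called and 1 higher at an unadjusted p under 0.05, beside 6.69% of all genes. Their levels were low: Lyz2 averaged 5.67 CPM in sham and 23.7 CPM with ISO, Cd68 1.04 and 3.51 CPM and Csf1r 2.58 and 5.42 CPM. Ptprc was at 0 counts in 12 libraries.

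The receptor for IL-33 was almost absent from these cells. Il1rl1, which encodes ST2, had 0 counts in 13 of 18 libraries and 2.83 CPM at most, while its co-receptor gene Il1rap had a median of 25.4 CPM. Of the 14 genes tested in the list for IL-33 and the interleukin-1 family, Il33 included, 0 were called for ISO and only Il33 had an unadjusted p under 0.05. The 3 genes whose log2 CPM most resembled Il33 over the 18 libraries were Cpeb1 (Pearson r 0.79), Angptl7 (0.79) and Dkk3 (0.79). Without the 2 libraries farthest from the median of the similar gene, chosen separately for each of them, these values were 0.74, 0.78 and 0.75. These are descriptions over libraries that share their scaling, as are the other likenesses below.

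Il6 (ENSMUSG00000025746, chromosome 5, 30013114 to 30019981, plus strand of mm10) is the cytokine of the set. Its promoter and that of Cxcl1 are printed because both are textbook targets of NF-kB. In the 250 bases before the RefSeq start, chr5:30012864-30013113, capitals mark an AP-1 motif (TGANTCA), a CRE core (TGACGT, here on the other strand) and an NF-kB motif (GGG, any 2 bases, then TTTCC). Each motif was searched on both strands, and the shares of all windows with a match were 6.75% for AP-1, 6.47% for the CRE core and 1.41% for NF-kB.
Il6 window: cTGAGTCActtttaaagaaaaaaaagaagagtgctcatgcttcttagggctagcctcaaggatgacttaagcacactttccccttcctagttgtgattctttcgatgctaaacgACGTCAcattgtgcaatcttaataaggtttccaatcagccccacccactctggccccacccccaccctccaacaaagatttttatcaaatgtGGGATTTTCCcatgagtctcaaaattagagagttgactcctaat
The NF-kB match ends 35 bases before the start.

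Il6 varied as much within groups as between them. In C57BL/6 the sham libraries held 468 and 328 CPM, the day 14 libraries 864 and 415 CPM and the day 21 libraries 1093 and 327 CPM. In C3H/HeJ the sham libraries held 895 and 154 CPM, the day 14 libraries 535 and 372 CPM and the day 21 libraries 147 and 329 CPM. In KK/HlJ the sham libraries held 222 and 171 CPM, the day 14 libraries 374 and 435 CPM and the day 21 libraries 159 and 492 CPM. Only the KK/HlJ day 14 libraries stood clear of their sham libraries as a pair. The mean Il6 difference over strains and days was 0.32 ± 0.41 on the log2 scale (edgeR adjusted p = 1).

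Per strain, the Il6 log2 fold changes were 0.68 ± 0.82 and 0.84 ± 0.82 in C57BL/6 at days 14 and 21. In C3H/HeJ they were -0.21 ± 0.81 and -1.14 ± 0.82, and without C3H/HeJ sham replicate 1 they became 1.57 and 0.64. In KK/HlJ they were 1.04 ± 0.82 and 0.73 ± 0.82. The standard errors for Il6 were the largest of the 9 genes in each of these comparisons, and its lowest adjusted p was 0.836. Both parts of the receptor were present, Il6st, the signal-transducing chain, with a median of 685 CPM and Il6ra with 16.97 CPM.

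Il6 moved against immediate early genes from library to library. The summed level of 23 early response genes, which are induced within minutes of a stimulus and also by tissue dissociation, had a Pearson r of -0.73 and a Spearman rho of -0.69 with Il6 over 18 libraries, and r was -0.55 without the 2 farthest libraries. Of the 23 early response genes, 0 were called for ISO and 4 had an unadjusted p under 0.05, all lower with ISO, beside 6.69% of all genes, among them Klf2 at a log2 fold change of -0.67 ± 0.18 (edgeR adjusted p = 0.278). The part of early response genes in the values of Il6 was not tested. Of 14 genes tested in the interleukin-6 family, Il6 included, 0 were called for ISO, beside 0.0571% of all genes. Osmr, a receptor chain for oncostatin M, at 0.56 ± 0.24 and Il11ra1, the receptor chain for interleukin-11, at -0.51 ± 0.22 were thus not calls. The genes most like Il6 were Dnaja2 (Pearson r 0.91), Etf1 (0.89) and Bzw1 (0.87), and without the 2 farthest libraries these were 0.87, 0.87 and 0.82.

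Ccl2, Ccl7 and Ccl11 are neighbours on the plus strand of chromosome 11, in that order from 82035571 to 82062955 (mm10). Ccl2 (ENSMUSG00000035385) and Ccl7 (ENSMUSG00000035373) attract monocytes through CCR2, and Ccl11 (ENSMUSG00000020676), also known as eotaxin, attracts eosinophils through CCR3. Ccl2 overlaps Gm17268 on the opposite strand, and since the strand setting of the counting is not given, reads of the pair cannot be told apart. None of the 9 genes shared a run of 50 transcript bases, the read length, with another annotated gene.

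Ccl2 was lower in the ISO libraries of C3H/HeJ, with values overlapping sham in the other strains. The C3H/HeJ sham libraries held 107 and 89.0 CPM, the day 14 libraries 68.1 and 30.0 CPM and the day 21 libraries 23.9 and 56.5 CPM. All 4 ISO libraries of C3H/HeJ lay below both sham libraries for Ccl2, as 9.68% of all genes did. In C57BL/6 Ccl2 was 83.3 and 57.6 CPM in sham, 117 and 53.1 CPM at day 14 and 73.0 and 62.7 CPM at day 21. In KK/HlJ it was 99.6 and 39.0 CPM in sham, 95.6 and 39.8 CPM at day 14 and 55.2 and 96.1 CPM at day 21. The groups of both these strains overlapped.

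The Ccl2 log2 fold changes in C3H/HeJ were -0.997 ± 0.57 at day 14 and -1.28 ± 0.57 at day 21 (edgeR adjusted p = 0.836). In C57BL/6 they were 0.28 ± 0.56 and -0.05 ± 0.56 and in KK/HlJ -0.04 ± 0.56 and 0.13 ± 0.56. Over strains and days the mean Ccl2 difference was -0.33 ± 0.28 (adjusted p = 0.973). The edgeR test among strains gave an adjusted p of 1 at day 14 and of 0.913 at day 21, so a difference between strains was not established for Ccl2.

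Ccl7 resembled Ccl2, with its lowest values in ISO libraries of C3H/HeJ and KK/HlJ at day 21. C3H/HeJ gave 275 and 191 CPM in sham, 233 and 97.0 CPM at day 14 and 54.8 and 95.7 CPM at day 21. KK/HlJ gave 426 and 127 CPM in sham, 202 and 140 CPM at day 14 and 64.9 and 189 CPM at day 21. In C57BL/6 it was 295 and 168 CPM in sham, 387 and 133 CPM at day 14 and 241 and 174 CPM at day 21. Only in C3H/HeJ at day 21 were both libraries below the whole sham pair.

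The mean Ccl7 difference at day 21 was -0.97 ± 0.40 on the log2 scale (edgeR adjusted p = 0.953). Without the filter on low counts its adjusted p was 0.0174, within a range of 0.0174 to 1 over all alternatives, and with the 4 least similar libraries left out the difference shrank to -0.30. At day 14 it was -0.34 ± 0.39. By strain, the Ccl7 values at days 14 and 21 were 0.17 ± 0.68 and -0.16 ± 0.68 in C57BL/6 and -0.50 ± 0.68 and -1.63 ± 0.70 in C3H/HeJ. For KK/HlJ they were -0.70 ± 0.68 and -1.12 ± 0.69. Averaged over strains and days it was -0.66 ± 0.33 (adjusted p = 0.769).

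In C57BL/6 Ccl11 lay below sham at day 14 and above it at day 21, and in C3H/HeJ it lay below sham at day 21. In C57BL/6 it was 22.0 and 26.1 CPM in sham, 12.1 and 12.7 CPM at day 14 and 31.6 and 32.8 CPM at day 21. The 3 groups did not overlap, with both day 14 libraries below and both day 21 libraries above sham. The share of all genes in this order was not counted, so it is given as a description only. The C3H/HeJ libraries held 67.3 and 24.3 CPM in sham, 25.5 and 14.4 CPM at day 14 and 9.20 and 23.5 CPM at day 21. The KK/HlJ libraries held 9.75 and 53.1 CPM in sham, 7.93 and 25.6 CPM at day 14 and 19.6 and 25.8 CPM at day 21, so the wide sham pair spanned most of the ISO values.

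The Ccl11 difference over strains and days was -0.76 ± 0.35 on the log2 scale (edgeR adjusted p = 0.735). Its mean was -1.02 ± 0.42 at day 14 (adjusted p = 0.843) and -0.51 ± 0.42 at day 21. In C57BL/6 the values were -0.96 ± 0.73 and 0.42 ± 0.72. C3H/HeJ had -1.20 ± 0.73 and -1.48 ± 0.74, and KK/HlJ had -0.90 ± 0.73 and -0.47 ± 0.73. In C57BL/6 Ccl11 at day 21 was 2.6 times its level at day 14 (log2 1.38 ± 0.74, adjusted p = 0.903). In the comparisons of day 21 with day 14, 0 of 9 genes were called in any of the 3 strains, beside 0% of all genes in each strain. At an unadjusted p under 0.05 the count was 1 in C57BL/6 (Cx3cl1, lower at day 21) beside 3.44% of genes, 0 in C3H/HeJ beside 0.419% and 0 in KK/HlJ beside 1.05%.

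The genes of CCR2 and CCR3, the receptors named above for the CC members, were at the edge of detection. Ccr3 had 0 counts in all 18 libraries, and Ccr2 had 4 counts in all, in 2 libraries. The genes most like Ccl2 were Ccl7 itself (Pearson r 0.83), Tnfrsf12a (0.81) and Bean1 (0.76). Those most like Ccl7 were Tuba1c (0.85), Inhba, a subunit of activin A (0.83), and Ccl2. Those most like Ccl11 were Nmd3 (0.83), Mtap (0.78) and Rmnd5b (0.76).

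**Figure D3:**
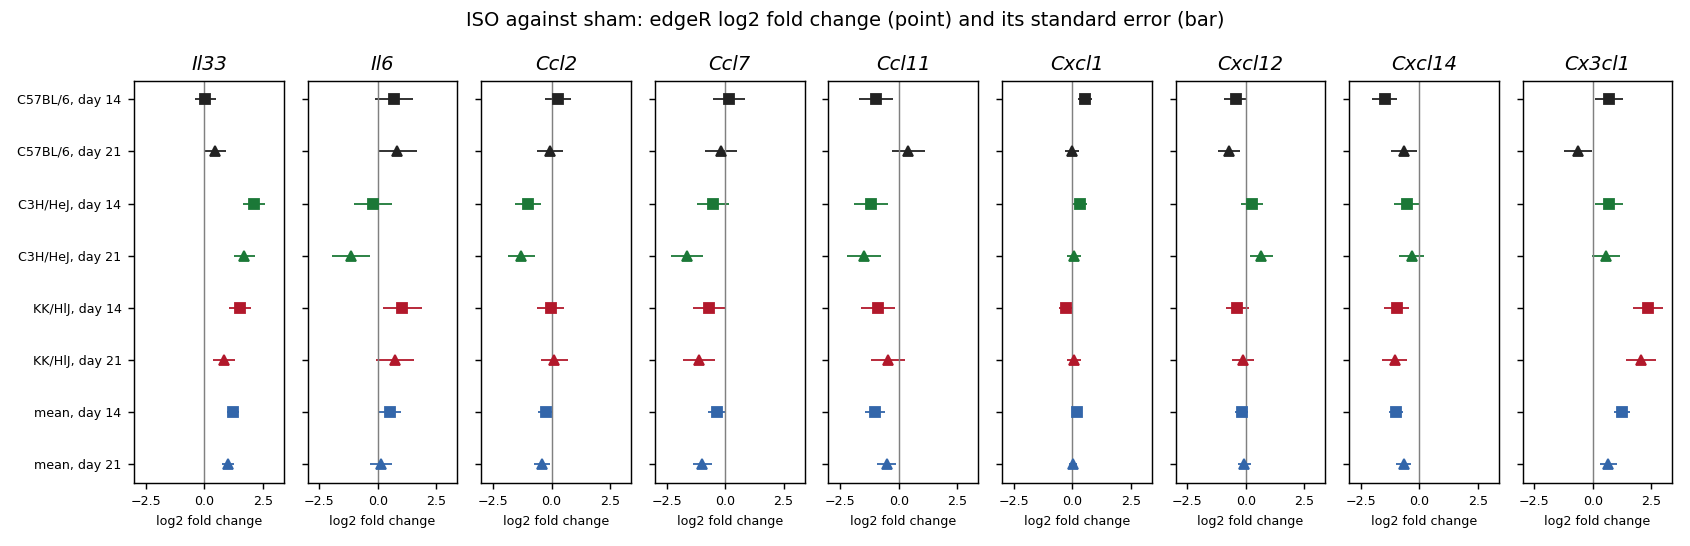
Log2 fold change of ISO against sham for each gene (edgeR, bars are 1 standard error) in each strain and day and as the mean over strains, with 0 marked. Il33 lies from 0.84 to 2.14 in C3H/HeJ and KK/HlJ and near 0 in C57BL/6 at day 14, and all 8 Cxcl14 values lie below 0.

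Cxcl1 (ENSMUSG00000029380, chromosome 5, 90891241 to 90893115, plus strand of mm10) attracts neutrophils through CXCR2. In the 250 bases before its RefSeq start, chr5:90890995-90891244, capitals mark 2 NF-kB motifs, one of them on the other strand, and a CRE core on the other strand, searched as above.
Cxcl1 window: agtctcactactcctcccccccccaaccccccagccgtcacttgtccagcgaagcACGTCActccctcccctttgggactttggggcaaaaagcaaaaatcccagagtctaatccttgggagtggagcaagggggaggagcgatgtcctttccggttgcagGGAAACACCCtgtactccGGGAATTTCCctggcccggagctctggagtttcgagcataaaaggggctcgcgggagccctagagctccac
The nearer NF-kB match ends 62 bases before the start. Of the 9 genes, 6 had a window in the RefSeq table, and only the Il6 and Cxcl1 windows held the NF-kB letters.

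Cxcl1 was high in every group. In C57BL/6 it was 996 and 714 CPM in sham, 1495 and 993 CPM at day 14 and 863 and 850 CPM at day 21. In C3H/HeJ it was 658 and 721 CPM in sham, 775 and 960 CPM at day 14 and 664 and 799 CPM at day 21. In KK/HlJ it was 912 and 1192 CPM in sham, 845 and 925 CPM at day 14 and 1162 and 1032 CPM at day 21. Sham and ISO libraries overlapped on each day in each strain, except that both day 14 libraries of C3H/HeJ exceeded sham.

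As a mean over strains and days Cxcl1 differed by 0.13 ± 0.15 on the log2 scale (edgeR adjusted p = 1). By strain it ran from -0.25 ± 0.30 in KK/HlJ at day 14 to 0.54 ± 0.30 in C57BL/6 at day 14. Between strains, KK/HlJ exceeded C3H/HeJ by 0.41 ± 0.17 (adjusted p = 0.673). The receptor gene Cxcr2 had 0 counts in 17 of 18 libraries. The genes most like Cxcl1 were Adamts8 (Pearson r 0.74), Map3k6 (0.72) and Aldh1a2, an enzyme of retinoic acid synthesis (0.72). Of 19 genes tested in the NF-kB pathway list 0 were called for ISO and 2 had an unadjusted p under 0.05, beside 6.69% of all genes. These were Nfkbiz, an NF-kB regulator, at 0.38 ± 0.17, and Tnf, which had 0 counts in 8 of 18 libraries and averaged 1.34 CPM in sham and 0.58 CPM with ISO, so that no fold is given.

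Cxcl12 (ENSMUSG00000061353, chromosome 6, 117168535 to 117181367, plus strand of mm10) encodes a chemokine that holds and recruits CXCR4-bearing cells and is also bound by the scavenging receptor ACKR3. In C57BL/6 it was 329 and 252 CPM in sham, 181 and 250 CPM at day 14 and 199 and 154 CPM at day 21. All 4 ISO libraries of C57BL/6 lay below both sham libraries, as 6.44% of all genes did, the nearest by less than 2 CPM. In C3H/HeJ Cxcl12 was 153 and 366 CPM in sham, 232 and 391 CPM at day 14 and 550 and 267 CPM at day 21. KK/HlJ gave 192 and 536 CPM in sham, 245 and 320 CPM at day 14 and 407 and 262 CPM at day 21. The KK/HlJ sham pair spanned all 4 ISO values of that strain and the C3H/HeJ sham pair 2 of 4.

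The mean over strains and days for Cxcl12 was -0.12 ± 0.24 on the log2 scale (edgeR adjusted p = 1). The values at days 14 and 21 were -0.43 ± 0.49 and -0.72 ± 0.49 in C57BL/6 and 0.26 ± 0.49 and 0.66 ± 0.49 in C3H/HeJ. For KK/HlJ they were -0.37 ± 0.49 and -0.12 ± 0.49. Cxcl12 had a Pearson r of 0.60 and a Spearman rho of 0.58 with the summed endothelial markers over 18 libraries. Without the 2 farthest libraries that r was 0.37. Much of the sum (median 835 CPM) came from Eng (median 392.5 CPM) and Tek (206.5 CPM), while Cdh5 and Kdr had 9.11 and 14.6 CPM. With the summed interleukin-6 family genes other than Il6, r was higher at 0.72 (rho 0.79), and 0.66 without the 2 farthest. Much of that sum (median 2823 CPM) came from the signalling genes Socs3 (median 1252 CPM) and Il6st (685 CPM). The cytokine genes Lif and Il11 had medians of 6.37 and 1.09 CPM. The part of endothelial cells in the level of Cxcl12 was not tested. The summed pericyte and smooth muscle markers also differed in C57BL/6, at 4359 to 7686 CPM in sham, 2126 to 6036 CPM at day 14 and 1631 to 3050 CPM at day 21, and over 18 libraries they had an r of 0.27 and a rho of 0.34 with Cxcl12; their part in its level was not tested. Its highest library, 550 CPM, was the C3H/HeJ day 21 library with the most endothelial marker RNA. Cxcr4 had a median of 5.39 CPM and Ackr3 of 782 CPM. The genes most like Cxcl12 were Eps15l1 (Pearson r 0.92), Rere (0.90) and Mtmr9 (0.87).

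Cxcl14 (ENSMUSG00000021508, chromosome 13, 56288643 to 56296551, minus strand of mm10) encodes a chemokine made constitutively in many tissues. It was the member lower with ISO in the most libraries. In C57BL/6 it was 318 and 336 CPM in sham, 107 and 126 CPM at day 14 and 117 and 297 CPM at day 21. C3H/HeJ gave 256 and 348 CPM in sham, 215 and 200 CPM at day 14 and 296 and 189 CPM at day 21. The KK/HlJ libraries held 620 and 789 CPM in sham, 127 and 590 CPM at day 14 and 415 and 266 CPM at day 21. All 4 ISO libraries of C57BL/6 and of KK/HlJ lay below both sham libraries, beside 6.44% and 5.74% of genes, and 3 of 4 did in C3H/HeJ.

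Over all strains 11 of 12 ISO libraries were below both sham libraries of their strain for Cxcl14, and 0.438% of genes reached at least that count. Averaged over strains and days the log2 fold change was -0.84 ± 0.26 (edgeR adjusted p = 0.464), a level 1.79 times lower with ISO. It was -1.002 ± 0.31 at day 14 (adjusted p = 0.642) and -0.67 ± 0.31 at day 21 (adjusted p = 0.953). By strain the values at days 14 and 21 were -1.49 ± 0.55 and -0.66 ± 0.54 in C57BL/6 and -0.54 ± 0.54 and -0.32 ± 0.53 in C3H/HeJ. For KK/HlJ they were -0.97 ± 0.54 and -1.05 ± 0.54. The edgeR test among strains gave an adjusted p of 1 at both days.

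The call for Cxcl14 differed with the libraries and the filter. Without KK/HlJ ISO day 14 replicate 2, the ISO library at 590 CPM, the mean over strains and days was -1.09 (adjusted p = 0.0127), the day 14 mean -1.50 (adjusted p = 0.00326) and the KK/HlJ day 14 value -2.48 (adjusted p = 0.0106). Without KK/HlJ ISO day 14 replicate 1, the library at 127 CPM and one of the 4 least similar, these values were -0.72, -0.76 and -0.26, and none was a call. For the mean over strains and days the adjusted p was 0.00263 without the filter and 0.0441 without the 4 least similar libraries, and ran from 0.00263 to 1 over all alternatives. Of the 16 pericyte and smooth muscle markers, 0 were called and 4 were lower with ISO at an unadjusted p under 0.05 in that comparison, beside 6.69% of all genes, with Vtn averaging 388 CPM in sham and 156 CPM with ISO. Their median log2 fold change was -0.35 beside 0.03 over all genes, their sum had an r of -0.01 and a rho of 0.16 with Cxcl14, and their part in the result was not tested. Its most similar genes were H2-T10 (Pearson r 0.80), Cdkal1 (0.78) and Ccdc71 (0.77).

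Cx3cl1 (ENSMUSG00000031778, chromosome 8, 94772009 to 94782427, plus strand of mm10) encodes fractalkine, a membrane-bound chemokine that is released by cleavage and binds CX3CR1 on monocytes and macrophages. In KK/HlJ it was 8.79 and 3.23 CPM in sham, 35.2 and 27.1 CPM at day 14 and 27.5 and 22.8 CPM at day 21. All 4 ISO libraries lay above both sham libraries in KK/HlJ, an order shared by 5.78% of genes, and the lower sham library held 35 counts. In C57BL/6 Cx3cl1 was 22.8 and 20.4 CPM in sham, 34.3 and 36.0 CPM at day 14 and 9.17 and 18.5 CPM at day 21. There both day 14 libraries were above and both day 21 libraries below sham, and the share of all genes in this order was not counted. The C3H/HeJ libraries held 22.9 and 34.3 CPM in sham, 32.7 and 58.4 CPM at day 14 and 63.9 and 21.5 CPM at day 21, with overlap.

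The KK/HlJ log2 fold changes of Cx3cl1 were 2.37 ± 0.64 at day 14 (edgeR adjusted p = 0.669) and 2.06 ± 0.63 at day 21 (adjusted p = 0.713). Without sham replicate 1 they were 3.25 and 2.95, and without sham replicate 2 1.82 and 1.51. By DESeq2 the day 14 value had an adjusted p of 0.0475, within a range of 0.0475 to 1 over all alternatives. The C57BL/6 values were 0.70 ± 0.60 and -0.64 ± 0.60 and the C3H/HeJ values 0.67 ± 0.60 and 0.58 ± 0.60. Averaged over strains and days Cx3cl1 was 1.94 times as high with ISO (log2 0.96 ± 0.31, adjusted p = 0.473), with 1.25 ± 0.35 at day 14 and 0.66 ± 0.35 at day 21. It exceeded both sham libraries in 8 of 12 ISO libraries and was below both in 3, where 7.01% of genes were above in at least 8.

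KK/HlJ sham was the lowest group for Cx3cl1, at 6.01 ± 3.93 CPM (SD, 2 libraries). Fgd5, known as an endothelial gene, was among the 3 genes most like Cx3cl1, with Tatdn2 (Pearson r 0.86), Fgd5 (0.84) and Kctd10 (0.84), and without the 2 farthest libraries these were 0.57, 0.79 and 0.67. The library with the most endothelial marker RNA, C3H/HeJ ISO day 21 replicate 1, was also the highest for Cx3cl1, at 63.9 CPM. Over the 18 libraries Cx3cl1 had a Pearson r of only 0.28 and a Spearman rho of 0.22 with the summed endothelial markers. Without the 2 farthest libraries that r was 0.07. In KK/HlJ the summed endothelial markers ran from 680 to 906 CPM in sham, 763 to 1123 CPM at day 14 and 908 to 952 CPM at day 21. The median log2 fold change of these 18 genes in KK/HlJ was 0.80 at day 14 and 1.33 at day 21, beside 0 and 0.04 over all genes, with 0 called and 3 higher at an unadjusted p under 0.05 on each day, beside 4.74% and 5.23% of all genes. Their part in the result was not tested. Cx3cr1 had 0 counts in 13 of 18 libraries.

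The second question was whether the strains differed in level over the 3 conditions, and 0 of 9 genes were called in any pair of strains. The background was 0.647% of genes for C3H/HeJ against C57BL/6, 0.273% for KK/HlJ against C57BL/6 and 0.406% for KK/HlJ against C3H/HeJ. At an unadjusted p under 0.05 the counts were 2 of 9 beside 8.29%, 2 of 9 beside 5.81% and 3 of 9 beside 6.3%, in the same order. Cxcl14 was 2.22 times as high in KK/HlJ as in C57BL/6 (log2 1.15 ± 0.31, edgeR adjusted p = 0.293) and 1.78 times as high as in C3H/HeJ (log2 0.83 ± 0.31, adjusted p = 0.576). In sham alone Cxcl14 averaged 705 ± 119 CPM in KK/HlJ, 327 ± 12.9 CPM in C57BL/6 and 302 ± 64.6 CPM in C3H/HeJ (SD, 2 libraries each), so the KK/HlJ sham libraries stood clear of the other 4. DESeq2 gave an adjusted p of 0.0128 for KK/HlJ against C57BL/6, and the value without KK/HlJ ISO day 14 replicate 1 was 1.39 (adjusted p = 0.00504), within a range of 7.56e-05 to 0.787 over all alternatives. Without replicate 2 of that group it was 0.65, and against C3H/HeJ 0.33.

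Il33 was higher than in C57BL/6 by 0.91 ± 0.26 on the log2 scale in KK/HlJ (edgeR adjusted p = 0.32) and by 0.60 ± 0.26 in C3H/HeJ (adjusted p = 0.536). In sham libraries Il33 averaged 72.6 ± 18.5 CPM in C57BL/6, 50.8 ± 21.2 CPM in C3H/HeJ and 89.0 ± 52.0 CPM in KK/HlJ (SD, 2 libraries each), and these overlapped. Cx3cl1 was lower in KK/HlJ than in C3H/HeJ by a log2 difference of -1.19 ± 0.35 (adjusted p = 0.285) and higher in C3H/HeJ than in C57BL/6 by 0.80 ± 0.35 (adjusted p = 0.533). The only gene of the ligand, receptor, cytokine, NF-kB and processing lists called in any of the 17 comparisons was Dpp4, a protease that cleaves and inactivates several chemokines. Dpp4 was lower in KK/HlJ than in C57BL/6, at -1.75 ± 0.30 (edgeR adjusted p = 0.00449), and stayed past the threshold under each alternative and without each library in turn, with adjusted p of at most 0.046. In the tests of a difference in the ISO response among strains, 0 of 9 genes were called at day 14 or day 21, beside 0% of all genes on each day, and the unadjusted p was under 0.05 for Il33 at day 14, beside 1.72% of genes, and for Cx3cl1 at day 21, beside 4.79%.

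The third question was whether the members moved together from library to library. Of 36 pairs, 5 had a Benjamini-Hochberg adjusted permutation p under 0.05 for Pearson's r of log2 CPM over the 18 libraries (100000 permutations, two-sided). Libraries were permuted freely across strains and conditions, so these p-values do not allow for the groups. The share of all gene pairs with such an r was not counted, so the 5 pairs are not shown to be unusual. Ccl2 and Ccl7 had the highest r, 0.83 (permutation p = 2e-05, adjusted p = 0.00072; Spearman rho 0.87, permutation p = 1e-05, the smallest that the permutations can give). Without the 2 libraries farthest from the Ccl2 median r was 0.74. In each of the 9 groups the same library was higher for both genes, and the deviations from the group means had an r of 0.92, so the pair varied together within groups.

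Cxcl12 ran against both. Its r was -0.70 with Ccl7 (permutation p = 0.00109, adjusted p = 0.0131; rho -0.71, permutation p = 0.00129) and -0.70 with Ccl2 (permutation p = 0.00094, adjusted p = 0.0131; rho -0.70, permutation p = 0.0015). Without the 2 farthest libraries both were -0.56. Il6 and Cxcl12 had an r of -0.69 (permutation p = 0.00179, adjusted p = 0.0161; rho -0.60, permutation p = 0.0106, adjusted p = 0.0637), and -0.62 without the 2 farthest. Il6 and Cxcl14 had an r of -0.61 (permutation p = 0.00661, adjusted p = 0.0476; rho -0.61, permutation p = 0.00861, adjusted p = 0.062), and -0.58 without the 2 farthest. By rank neither of these 2 pairs with Il6 passed the threshold, while both pairs of Cxcl12 with a CC chemokine did (adjusted p = 0.018 for each rho). Il33 and Cxcl14, which differed in opposite directions with ISO, had an r of -0.06 (permutation p = 0.818, adjusted p = 0.893; rho -0.11, permutation p = 0.674). Ccl11 lies beside Ccl2 and Ccl7 on the chromosome, and its r was 0.08 with each (permutation p = 0.757 and 0.74, adjusted p = 0.851; rho 0.02 and 0.05, permutation p = 0.935 and 0.857).

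**Figure D4:**
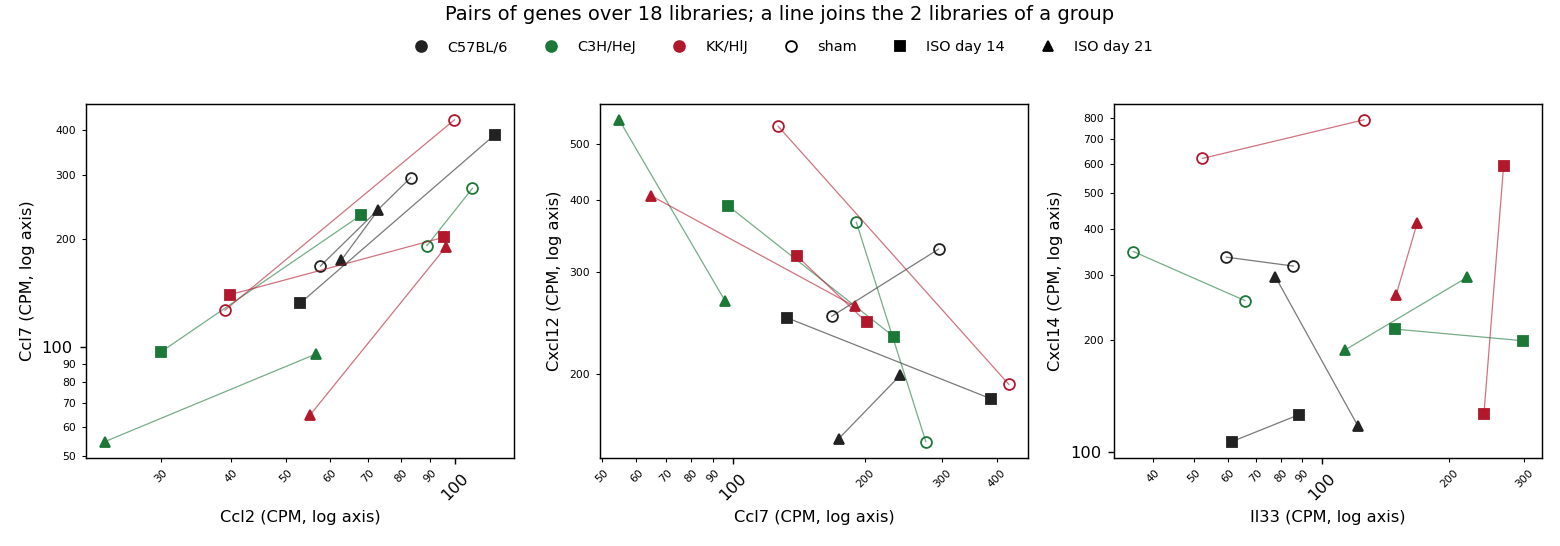
Levels (CPM, log axes) of 3 pairs of genes over 18 libraries, with colour for strain, marker for condition and a line joining the 2 libraries of a group. The same library is higher for Ccl2 and Ccl7 in all 9 groups (r 0.83), Ccl7 and Cxcl12 run in opposite directions (r -0.70), and Il33 and Cxcl14 show no relation (r -0.06).

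Of 34 listed chemokine ligand genes 26 passed the filter, the 7 members included. Among the 26, 0 were called for ISO, and 1 was higher and 3 lower at an unadjusted p under 0.05, beside 6.69% of all genes. The 1 higher was the member Cx3cl1, and the lower ones included the members Cxcl14 and Ccl11, all reported above. The median log2 fold change was 0.01 beside 0.03 over all genes. Cxcl16, a membrane-bound chemokine named here for its level after the values were seen, had a median of 70.9 CPM, averaged 25.6 CPM per kb and differed by -0.11 ± 0.19. Ccl8, another monocyte attractant, had a median of 16.3 CPM and differed by -0.36 ± 0.36, and Cxcl5, a neutrophil attractant, had a median of 7.18 CPM and differed by 1.65 ± 0.89 (edgeR adjusted p = 0.778). Of 22 chemokine receptor genes 6 passed the filter and 0 were called. Ackr4, a scavenging receptor that removes chemokines of the CCL19 and CCL21 group, had the smallest p of the 6, at 47.4 CPM on average in sham and 97.1 CPM with ISO (log2 1.28 ± 0.29, edgeR adjusted p = 0.131). Ackr4 passed the threshold without the filter (adjusted p = 0.000177), with DESeq2 (adjusted p = 0.00294) and without the sham replicate 2 of C3H/HeJ (adjusted p = 0.0278) or of KK/HlJ (adjusted p = 0.0251). Of 8 genes for chemokine processing 7 were tested and 0 were called for ISO, with Dpp4 at 0.33 ± 0.26.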

How the data were processed

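RNA was measured in 18 libraries of sorted cardiac cells. Per the labels, stranded mRNA libraries were read as single ends of 50 nt. Per the submitters' processing notes, FastQC, STAR 2.5.3a, edgeR and mm10 were used. Raw counts for each Ensembl gene were deposited, with no scaling by the authors. Counter, strand setting and annotation release: not given in the sources used here. All strains were mapped to 1 genome, so strain variants can lower counts. Symbols and coordinates came from GENCODE M21, which matched 53237 of 53342 identifiers; the other 105 hold 0.0016% of reads.

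Counts were tested with the quasi-likelihood method of edgeR 4.0.16 (R 4.3.3, TMM, robust) over 15762 genes left by default filtering, with 1 term for each of 9 groups, 9 residual degrees of freedom and Benjamini-Hochberg adjustment over all genes in each of 17 comparisons. The standard error was derived from the fold change and its F statistic. Counts were simulated for the mean ISO difference over strains and days only, and fold changes were recovered. Unchanged genes passed an unadjusted threshold more often than the nominal share, and the share of false genes among the calls was well above nominal. Calls and unadjusted p-values of that comparison thus lean towards too many. Whether those of the other comparisons do, the call of Dpp4 included, was not tested. Alternatives were DESeq2 1.42.0, RLE scaling, no filter, a replicate block, only the groups compared, limma 3.58.1 (voom) with quality weights, the 4 least similar libraries left out, and each library left out. Genes named beside the 9 were those called in any comparison, up to 6 per pathway list by p of the ISO comparison, the receptors, and for each member the 3 genes of highest Pearson r (log2 CPM, prior count 2, mean of at least 5 CPM, no predicted names). Members and lists were chosen with earlier results of these data known. Promoter windows are 250 bases from RefSeq (GRCm38.p6); 6 of 9 genes matched.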

Additional observations from a re-analysis of the deposited data

Results flagged for a closer look

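At day 21 both C57BL/6 ISO libraries lay above sham for Ccl11 (log2 fold change 0.42) and both C3H/HeJ ISO libraries below it (-1.48). The edgeR test of a difference among the 3 strains gave an adjusted p of 0.913. At day 21 both KK/HlJ ISO libraries lay above sham for Cx3cl1 (2.06) and both C57BL/6 ISO libraries below it (-0.64). The same test gave an adjusted p of 0.913. For neither gene was the share of all genes in such an order counted.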

How the results depend on the processing

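Log2 fold changes were recomputed for 93 values: the members' 81 differences between ISO and sham, 10 of their 54 differences between strains or days, and 1 each of Ackr4 and Dpp4. Those 10 had an unadjusted p under 0.05 or became calls under an alternative, except Ccl11 between days in C57BL/6, which the text prints. Under the alternatives other than leaving out 1 library, 607 of 641 kept their direction and side of the threshold, 21 became calls and 13 changed sign. DESeq2 called 1 member in each of C3H/HeJ at day 14, KK/HlJ at day 14, the day 14 mean, the mean over strains and days, and KK/HlJ against C57BL/6. Without the filter the calls were 1 in C3H/HeJ at day 14, 2 in each of the day 14 mean, the day 21 mean and the mean over strains and days, 3 in KK/HlJ against C57BL/6 and 1 in KK/HlJ against C3H/HeJ. With the 4 least similar libraries left out 1 was called in each of the mean over strains and days, KK/HlJ against C57BL/6 and KK/HlJ against C3H/HeJ. The cause was not tested. Over all genes, 9 were called for the mean ISO difference in the main fit, 97 by DESeq2, 97 without the filter, 15 with the replicate block and 141 without the 4 libraries. Leaving out each library moved the count of members called between 0 and 1 in KK/HlJ at day 14, the mean over strains and days, and both comparisons of KK/HlJ with another strain, and between 0 and 2 in the day 14 mean.

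Signs changed as follows. Cxcl1 in C57BL/6 at day 21 was -0.0068 without the filter and -0.027 with only the groups compared. Il6 in C3H/HeJ at day 14 was 0.33 with voom. With the 4 least similar libraries left out, Il6 was 1.57 and 0.64 in C3H/HeJ at days 14 and 21, Cxcl12 -0.22 in C3H/HeJ at day 14, Ccl2 0.013 in KK/HlJ at day 14 and 0.040 in the day 21 mean, Ccl7 0.12 and 0.57 in KK/HlJ at days 14 and 21 and 0.033 in the day 14 mean, and Cxcl1 -0.21 in KK/HlJ at day 21 and -0.057 in the day 21 mean. Leaving out each library in turn, 50 of 728 values changed sign and 10 became calls. In C57BL/6 at day 14 this gave Il33 from -0.24 to 0.33, Ccl2 from -0.40 to 0.74 and Ccl7 from -0.80 to 0.74. In C57BL/6 at day 21 this gave Il6 from -0.28 to 1.47, Ccl2 from -0.30 to 0.24, Ccl7 from -0.51 to 0.30 and Cxcl1 from -0.22 to 0.26. In C3H/HeJ at day 14 this gave Il6 from -1.002 to 1.57 and Cxcl12 from -0.22 to 1.01. In C3H/HeJ at day 21 this gave Il6 from -1.93 to 0.64, Cxcl1 from -0.054 to 0.21 and Cx3cl1 from -0.41 to 1.16. In KK/HlJ at day 14 this gave Ccl2 from -0.80 to 0.78, Ccl7 from -1.32 to 0.41, Ccl11 from -1.99 to 0.79 and Cxcl12 from -0.94 to 0.56. In KK/HlJ at day 21 this gave Il6 from -0.30 to 1.31, Ccl2 from -0.40 to 0.95, Ccl11 from -1.23 to 1.22, Cxcl1 from -0.12 to 0.27 and Cxcl12 from -0.68 to 0.80. For the day 14 mean this gave Ccl2 from -0.51 to 0.019, Ccl7 from -0.68 to 0.028 and Cxcl12 from -0.37 to 0.13. For the day 21 mean this gave Il6 from -0.23 to 0.73, Ccl11 from -0.79 to 0.053, Cxcl1 from -0.024 to 0.14 and Cxcl12 from -0.27 to 0.25. For the mean over strains and days this gave Cxcl12 from -0.31 to 0.19.

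The replicate block uses the shared replicate numbers. Over 36 pairs of groups the deviations of same-numbered libraries had correlations of -0.14 to 0.16, with 9 over 0.1. Pairing by number was thus not seen over all genes. The 4 least similar libraries were all replicate 1, and whether the numbers mark a batch was not tested. With the replicate block, Il33 for the mean over strains and days was 1.12 (edgeR adjusted p = 0.0968), and all 93 values kept their direction and side of the threshold. RLE in place of TMM scaling moved the median of all genes by less than 0.05 on the log2 scale in each comparison. With 2 libraries a group, even differences of several standard errors were not called. Il33 in C3H/HeJ at day 14 is an example (log2 2.14 ± 0.47, edgeR adjusted p = 0.433). A missing call therefore does not show that a gene was unchanged. The 35 counts of Cx3cl1 in 1 KK/HlJ sham library were the fewest for any member.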
